A study of Homo sapiens with 15 samples.

Results

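The regions described here were CpG-dense windows that were methylated before any knockdown. They were the non-overlapping 1 kb windows of the autosomes, counted from position 1 of each chromosome, that held 50 or more CpGs, had a methylation level (mC, methylated reads over all reads at the CpGs of the window, in percent) of 80% or more in each of the 5 Baseline libraries, and had 100 or more reads in all 15 libraries. Of 2734996 autosomal windows with any CpG, 30800 held 50 or more CpGs, 25938 of these had enough reads and 8464 were methylated at Baseline and thus members. Among the members, 1409 overlapped the promoter of a protein-coding gene (1 kb upstream to 100 bases downstream of the annotated start) and 7055 did not. The promoter windows belonged to 1335 genes, of which 126 had more than 1 such window, and 55 windows were shared between genes. Because the Baseline level chose the members, Baseline values, changes from Baseline and counts of windows called against Baseline are given as descriptions, and p-values are given only for levels and changes among the later stages.

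CpG islands are short stretches rich in CpG dinucleotides that lie at many promoters and usually stay free of methylation, so a CpG-dense window that is methylated is the less common state. In colorectal cancer many islands gain methylation, and bodies of transcribed genes, imprinted loci and germline genes also carry dense methylation. DNMT1 is the maintenance methyltransferase that copies methylation onto the new strand after replication, and UHRF1 is the E3 ubiquitin ligase that reads hemimethylated CpGs and helps bring DNMT1 to them.

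Whole-genome bisulfite sequencing, in which a cytosine that is still read as C counts as methylated, was used on HCT116, a human colorectal carcinoma cell line, carrying a doxycycline-inducible shRNA against UHRF1 or DNMT1. Cells with the UHRF1 hairpin had been expanded from 3 clones (Cl.3, Cl.6, Cl.9), whereas those with the DNMT1 hairpin were kept as 2 bulk cultures (R1, R2), and every population was sequenced once at Baseline (14 days, no doxycycline), at Knockdown (14 days with 10 ng/mL doxycycline) and at Recovery (day 28, with 14 days of doxycycline followed by 14 days without). Since all shUHRF1 populations were single clones and both shDNMT1 populations were bulk cultures, and their counts were deposited in separate tables, shRNA, kind of population and table cannot be told apart. Among the clones, Cl.3 and Cl.6 shared a table, whereas Cl.9 had one of its own. Cl.9 also had the most reads (552834221 to 577680690 per library, against 309268341 to 385114517). The study describes this clone as the one whose UHRF1 expression and methylation fell furthest under knockdown. Its difference from the other clones thus cannot be told apart from table, depth or strength of knockdown. UHRF1 and DNMT1 levels were not analysed here, there was no Baseline of day 28, and populations, not windows, were the replicates. How R1 and R2 differ beyond their numbers was not stated, so their spread may be technical.

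Pairs of 30-base stretches from 4 promoter windows show what these windows look like and how far apart their levels could lie. They came from the promoter windows with the highest (SOX30) and lowest (HSD17B1) mean Knockdown level in the clones and with the highest (INTU) and lowest (SMIM27) in the bulk populations. From each window the stretch with most CpGs and the one around its most isolated CpG were taken. Only stretches wholly inside the window and outside annotated untranslated regions were considered. All are written 5′ to 3′ on the plus strand of hg38, with each CpG in capitals.
SOX30, chr5:157671492-157671521, most CpGs: gcaaCGCGcCGCGctCGgttcagggctcCG
SOX30, chr5:157671126-157671155, most isolated CpG: ggagcctcaatcccCGctgacccagcactt
HSD17B1, chr17:42553568-42553597, most CpGs: ggCGCGgttCGggaCGCGtgttggtgacCG
HSD17B1, chr17:42553119-42553148, most isolated CpG: tccagtgtatgccaCGttgagggacctgaa
INTU, chr4:127623001-127623030, most CpGs: tCGaCGgctCGCGcccagCGcCGgagaCGg
INTU, chr4:127623767-127623796, most isolated CpG: aaagaaagattaagCGaagctgtcccttaa
SMIM27, chr9:32550534-32550563, most CpGs: acaCGgccaggctCGCGcccctCGggagCG
SMIM27, chr9:32550132-32550161, most isolated CpG: caaaaggtctactcCGttttcctcttaaat

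The 6 CpGs of the dense SOX30 stretch kept 97.4% of 115 pooled Knockdown reads methylated in the clones (95% Wilson interval 92.6% to 99.1%) and 58.7% of 75 reads in the bulk populations (47.4% to 69.1%). The 6 CpGs of the dense HSD17B1 stretch kept 28.97% of 214 reads in the clones (23.3% to 35.4%) and 16.9% of 183 reads in the bulk populations (12.2% to 23.04%). The populations were far apart there, at 63.3% in Cl.3, 46.3% in Cl.6, 4.42% in Cl.9, 24.1% in R1 and 4.48% in R2, and without Cl.9 the clones pooled to 56.4%. In the dense SMIM27 stretch, with 5 CpGs, 86.5% of 89 clone reads (77.9% to 92.1%) but 17.5% of 137 bulk reads (12.1% to 24.7%) were methylated. By population it was at 100%, 90.5% and 84.1% in Cl.3, Cl.6 and Cl.9, 25.8% in R1 and 10.7% in R2. At Baseline the dense SOX30 stretch was at 94.4% to 100% and the dense SMIM27 stretch at 95% to 100%, whereas the dense HSD17B1 stretch was at 84.6%, 77.3%, 59.6%, 71.4% and 73.6% in Cl.3, Cl.6, Cl.9, R1 and R2, so part of its low level was there from the start. On pooled reads the SMIM27 stretch was the one among these in which the clones and the bulk populations lay farthest apart. The dense INTU stretch had 7 CpGs and 77.3% of 198 reads in the clones (70.9% to 82.6%) and 62.0% of 205 in the bulk populations (55.1% to 68.3%), from Baselines of 78.2% to 98.1%. By population this stretch was at 85.4%, 59.3% and 84.7% in Cl.3, Cl.6 and Cl.9, all outside the pooled interval, and at 59.5% in R1 and 63.6% in R2. The isolated CpGs had 83.3%, 34.8%, 64.9% and 55.6% in the clones at SOX30, HSD17B1, INTU and SMIM27 and 72.7%, 25.0%, 39.5% and 34.5% in the bulk populations, on 11 to 38 reads each. Reads are not independent molecules, so these intervals cover counting error only. They cover neither the spread between populations nor the choice of these windows as extremes at Knockdown.

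Member windows held a median of 62 CpGs and at most 150, with a median GC content of 63.4%. A median of 7.69% of their CpGs had no other CpG within 20 bases, against 53.8% in windows methylated at Baseline by the same rule that held 10 to 19 CpGs (373266 windows), the set used for comparison below. Libraries held 309268341 to 577680690 reads at autosomal CpGs. The members were covered more thinly than other windows, at a median of 4.02 to 11.3 reads per CpG against 12.7 to 23.8 over all 829358 windows with 10 or more CpGs, and the 2 bulk Knockdown libraries had the highest medians per member window, 621 and 736 reads against 258 to 597 in the other libraries. The part of this depth gap in the results was not tested. A window with 100 reads at 50% mC has a Wilson interval of 9.62 points on either side, and one with 394 reads 4.91 points, so single windows carry counting errors of several points. Of the dense windows, 4862 failed the read requirement, and 2112 of these were at 80% or more in each Baseline library on the reads they had.

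Members lost methylation in all 5 populations at Knockdown, far less in the clones than in the bulk populations, and the bulk populations regained nearly all of it. Mean mC of the 8464 windows at Baseline was 94.4% in Cl.3, 95.1% in Cl.6, 93.1% in Cl.9 and 93.9% in each bulk population. At Knockdown it was 84.4%, 79.4% and 66.1% in the clones against 53.3% and 52.3% in the bulk populations. At Recovery it was 89.2%, 88.0% and 77.6% in the clones and 93.1% in each bulk population. The lowest clone, Cl.9, lay above the higher bulk population at Knockdown and below both at Recovery. The Knockdown level averaged 76.6 ± 9.47% (SD, n = 3) over the clones, against 52.8 ± 0.714% (SD, n = 2) over the bulk populations, a difference of 23.8 points with p = 0.2 in an exact two-sided permutation of 3 against 2 populations. This design cannot give a p below 0.1, nor a sign-flip permutation one below 0.25 with 3, 0.5 with 2 or 0.063 with 5 populations, so none of these tests can pass 0.05.

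**Figure D1:**
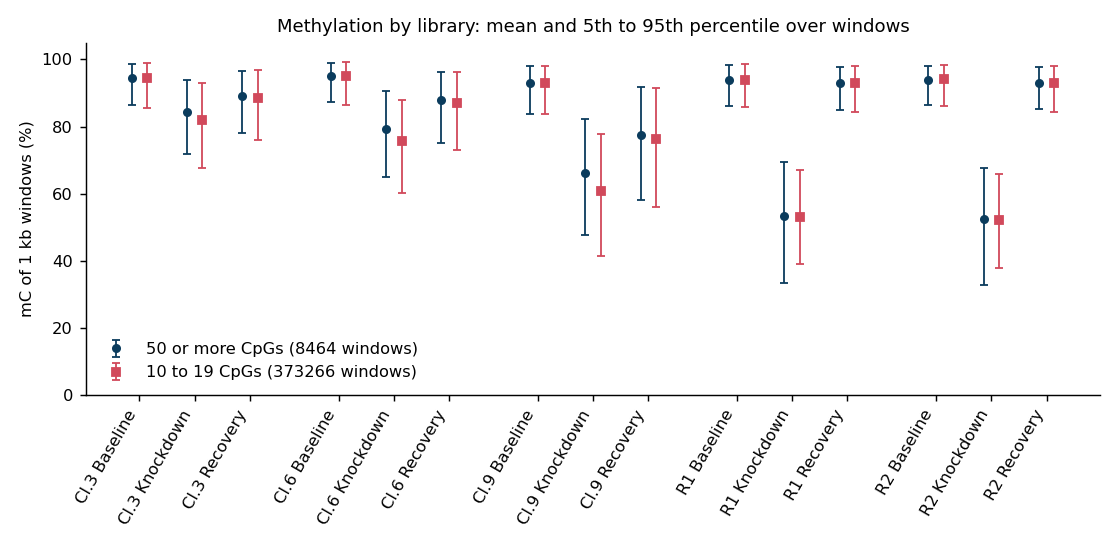
Mean mC (%) of 1 kb windows in each library, with bars from the 5th to the 95th percentile over windows, for windows with 50 or more CpGs (circles) and windows with 10 to 19 CpGs (squares), both methylated at Baseline. The member means were 84.4%, 79.4% and 66.1% in the clones, with 53.3% and 52.3% in the bulk populations at Knockdown, and the bulk means were back at 93.1% at Recovery.

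Per population, the change at Knockdown was -9.99 (Cl.3), -15.8 (Cl.6) and -27.0 points (Cl.9), with a mean of -17.6 ± 8.66 (SD, n = 3), while R1 changed by -40.6 and R2 by -41.6 points, with a mean of -41.1 ± 0.713 (SD, n = 2). When the windows for each population were chosen by the Baseline libraries of the other 4 populations, which gave 8497 to 8760 windows, the changes were -9.95, -15.8, -27.0, -40.6 and -41.6 points, so the choice of members by their own Baseline hardly moved them (lower in 5 of 5 populations). From Knockdown to Recovery, libraries of which the rule used the read numbers but not the levels, mC rose by 4.76, 8.64 and 11.5 points in the clones (8.29 ± 3.37, SD, n = 3) and by 39.7 and 40.8 points in the bulk populations (40.3 ± 0.751, SD, n = 2). The clones had lost less than these 39.7 and 40.8 points, so their rise could not have reached that of the bulk populations by a return to Baseline, and no p is given for the difference in mean rise. As a share of the loss, the clones regained 47.7%, 54.8% and 42.5% and the bulk populations 97.9% and 98.0%, a difference of 49.6 points, for which no p is given because the share is taken from the Baseline level. Against Baseline the members were at -5.22, -7.12 and -15.6 points at Recovery in the 3 clones, whereas R1 was at -0.872 and R2 at -0.817 points.

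Counted window by window, most members of the clones stayed methylated through the knockdown except in Cl.9. A level of 80% or more was kept at Knockdown by 6496 members in Cl.3, 4383 in Cl.6 and 766 in Cl.9, and by 7 in R1 and 3 in R2. Of all windows with 10 or more CpGs, whatever their Baseline level, 42.4%, 22.7%, 2.05%, 0.0222% and 0.0148% were at this level in Cl.3, Cl.6, Cl.9, R1 and R2. In all 3 clones together 731 members kept it (8.64%, against 1.97% of all windows), and in both bulk populations 0 did (0.00289% of all windows). A fall of 30 points or more was seen for 24, 183 and 2919 members in the clones (0.284%, 2.16% and 34.5%), where 1.28%, 8.1% and 52% of all windows with 10 or more CpGs fell that far. In R1 and R2 it was seen for 7165 and 7514 members (84.7% and 88.8%), against 77.7% and 79.9% of all windows. Such a fall occurred in all 3 clones for 15 members (0.177%, against 0.702% of all windows) and in both bulk populations for 6675 (78.9%, against 72.8%). The rule used the Baseline level, so nothing is read from these shares against the background.

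At Recovery, 4536, 3059 and 471 members (53.6%, 36.1% and 5.56%) lay within 5 points of Baseline in Cl.3, Cl.6 and Cl.9 (40.4%, 25.3% and 6.42% of all windows did) and 7948 and 8016 in R1 and R2 (85.4% and 86.6% of all windows did). A level of 80% or more was reached by 4017 members in all 3 clones (27.9% of all windows were there) and by 8363 in both bulk populations (67.2% of all windows). These counts too rest on the Baseline level and are descriptions.

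In most members the clones lay above the bulk populations at Knockdown. In 7217 members (85.3%) each of the 3 clones lay above both bulk populations, which held for 60.5% of all windows tested, and the reverse order held for 0 members and 0.229% of all windows. The order Cl.3 above Cl.6 above Cl.9 held in 6797 members (80.3%, against 80.1% of all windows). The background holds windows of any Baseline level, whereas members were chosen by a high one, so nothing is read from these shares. Across the 8464 windows, Knockdown levels had Spearman correlations of 0.695 to 0.734 between clones, 0.776 between R1 and R2 and 0.362 to 0.472 between a clone and a bulk population. A clone's Knockdown level also followed its own Baseline level (0.617 to 0.631) more closely than a bulk population's did (0.215 and 0.219), although Baseline levels span a narrow range here. Windows share libraries, depth and base composition, so these correlations are descriptions.

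**Figure D2:**
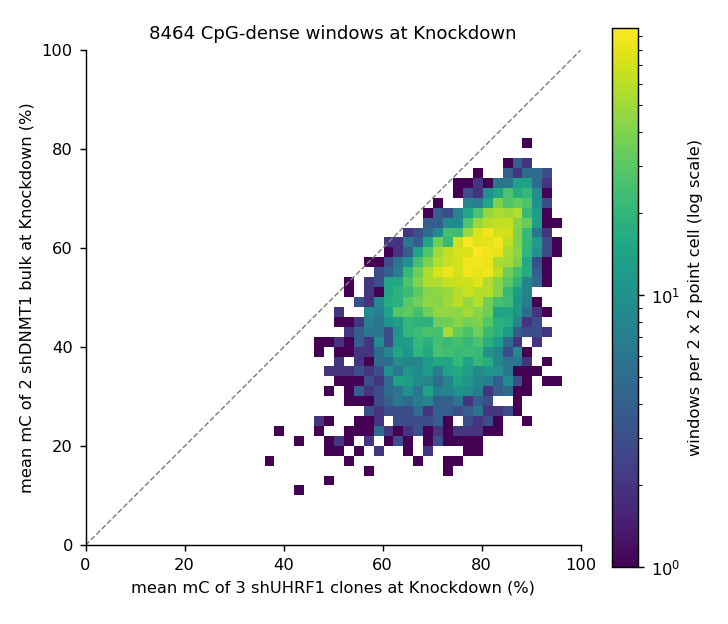
Each cell counts member windows by their mean mC at Knockdown in the 3 shUHRF1 clones (x axis, %) and the 2 shDNMT1 bulk populations (y axis, %), with colour on a log scale and a dashed line where both are equal. The bulk mean was the higher one in 3 windows, and the clone mean was 40 points or more above it in 512. The windows average 76.6% in the clones and 52.8% in the bulk populations, with a median difference of 22.4 points.

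The next comparison asked whether the number of CpGs in a methylated window went with how much it lost. Members lost less than windows of 10 to 19 CpGs in every clone, whereas the size and sign of this gap in the bulk populations depended on which windows were compared. The change of the sparser windows was -12.4, -19.4 and -32.4 points in the clones and -40.8 and -41.9 points in the bulk populations, so the gap was 2.42, 3.66 and 5.35 points in the clones (3.81 ± 1.47, SD, n = 3) and 0.248 and 0.318 points in the bulk populations (0.283 ± 0.0493, SD, n = 2). It was above 0 in 5 of 5 populations and larger in each clone than in either bulk population, and since it is taken from Baseline no p is given. Restricted to windows in highly methylated domains, which the study kept at a mean level of 80% or more, in all 5 Baseline domain lists, a restriction chosen after seeing the data, it was 2.45, 3.85 and 5.47 points in the clones and -0.652 and -0.558 points in the bulk populations. With 300 or more reads in every library, which left 1465 members and 5157 of the sparser windows, the clones averaged 4.27 points and the bulk populations 2.21. On either side of the boundary at 50 CpGs the levels differed by less than 1 point in each population, which in R1 and R2 was more than the gap above. Members with 50 or 51 CpGs (995 windows) had Knockdown levels of 83.5%, 78.2%, 63.9%, 53.0% and 51.9% in Cl.3, Cl.6, Cl.9, R1 and R2 and methylated windows with 48 or 49 CpGs (1151) had 83.2%, 77.7%, 63.4%, 52.2% and 51.02%.

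Within the members, those with more CpGs lost less in the clones, whereas in the bulk populations the classes of 50 to 69 and 70 to 99 CpGs lay close together and that of 100 or more was lowest. In Cl.9 the Knockdown level was 65.1% with 50 to 69 CpGs, 67.4% with 70 to 99 and 70.3% with 100 or more, above 60.7% with 10 to 19. In R1 the corresponding levels were 53.3%, 53.6% and 52.8%, against 53.2% with 10 to 19 CpGs. The change in members with 100 or more CpGs minus that in members with 50 to 69 was 1.96, 2.28 and 4.36 points in the clones and -1.17 and -1.69 points in the bulk populations, so the densest members lost least in the clones and most in the bulk populations. The share regained in members minus that in windows of 10 to 19 CpGs was -4.19, -4.08 and -6.26 points in the clones, where the sparser windows regained 51.9%, 58.9% and 48.7%. In the bulk populations this difference was 0.661 and 0.694 points.

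**Figure D3:**
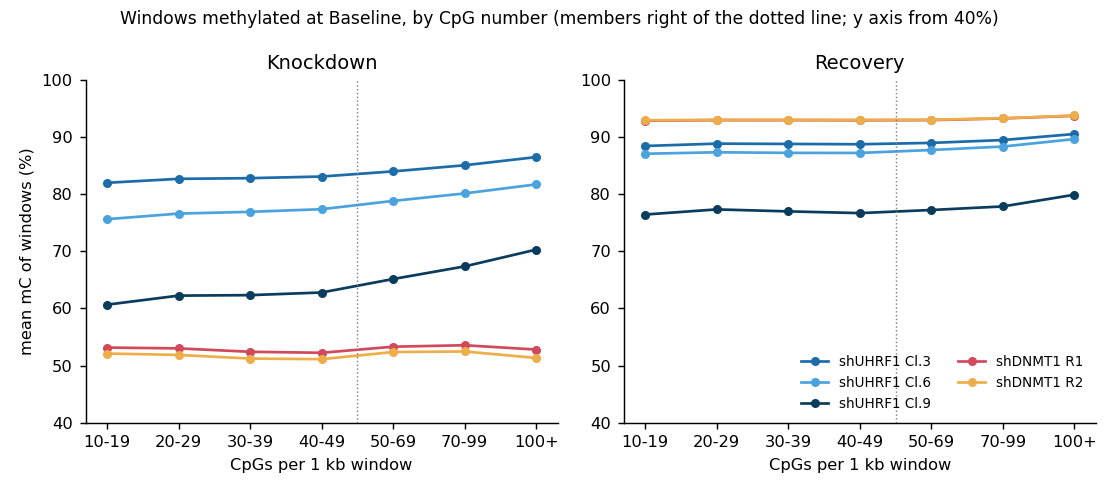
Mean mC (%) of windows methylated at Baseline, by CpGs per window, at Knockdown (left) and Recovery (right), with 1 line per population, members right of the dotted line and a y axis that starts at 40%. At Knockdown the Cl.9 line climbs from 60.7% to 70.3% whereas the R1 line stays between 52.2% and 53.6%.

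Spacing of single CpGs was then followed inside the members, since each window mixes close and isolated CpGs. CpGs with a near neighbour kept more methylation than isolated ones in every population. Pooled over the members, clone means at Knockdown were 83.9% for CpGs whose nearest CpG lay 2 to 4 bases away, 78.1% at 5 to 9, 70.5% at 10 to 19, 59.6% at 20 to 34 and 54.9% at 35 bases or more. The bulk means over the same classes were 57.1%, 52.7%, 47.8%, 41.6% and 40.1%. The change at CpGs with a neighbour under 20 bases away minus that at the others was 10.6, 13.1 and 16.8 points in the clones (13.5 ± 3.12, SD, n = 3) and 5.67 and 5.37 points in the bulk populations (5.52 ± 0.212, SD, n = 2), above 0 in 5 of 5 populations. No p is given for the difference, since it is taken from Baseline and the close CpGs also started higher. The bases beside the CpG went with the level too. Among close CpGs of the members, those flanked by C or G on both sides were at 82.4% in the clones and 55.9% in the bulk populations, and those flanked by A or T on both sides were at 68.4% and 46.4%. The first also started higher, with Baselines of 95.1% to 96.7% over the 5 populations against 90.6% to 93.2%. Spacing within the close CpGs was not matched, so flanking bases and spacing cannot be told apart here.

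At equal spacing the order of the windows was the other way round. For CpGs with a neighbour 2 to 4 bases away, a comparison chosen after seeing the data, the change in members minus that in windows of 10 to 19 CpGs was -1.10, -1.11 and -3.47 points in the clones and -8.03 and -8.05 points in the bulk populations. At 10 to 19 bases it was -3.19, -3.27 and -5.28 points in the clones and -4.62 and -4.40 points in the bulk populations, and at 20 to 34 bases -4.40, -4.60 and -4.73 points against -2.26 and -1.78 points. At 35 bases or more it was -3.32, -3.47 and -2.26 points in the clones but 0.403 and 0.125 points in the bulk populations. Member CpGs also started lower at equal spacing, with Baseline levels at 35 bases or more of 86.0%, 87.1%, 83.2%, 85.5% and 85.7% in Cl.3, Cl.6, Cl.9, R1 and R2, against 92.3%, 93.1%, 90.5%, 92.0% and 92.0% in the sparser windows. In all spacing classes below 35 bases a CpG inside a member window lost more than a CpG of like spacing in a sparser window, in 5 of 5 populations, and with Baselines that differ no p is given. The smaller loss of whole member windows in the clones was thus seen when CpGs of all spacings were pooled, and 529667 member CpGs had a neighbour under 20 bases away against 42137 that did not.

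**Figure D4:**
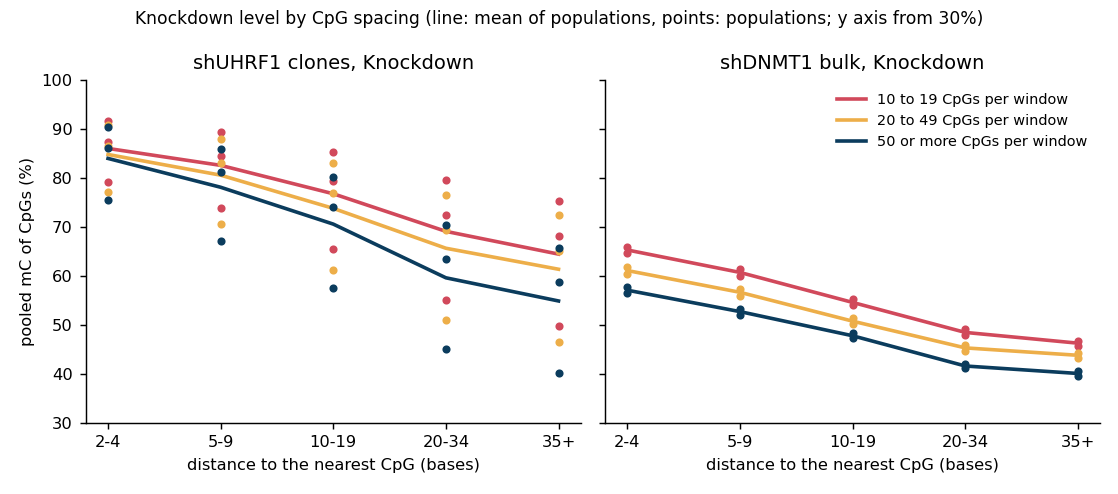
Pooled mC (%) of CpGs at Knockdown by distance to the nearest CpG (bases), for windows with 10 to 19, 20 to 49 and 50 or more CpGs methylated at Baseline, in the shUHRF1 clones (left) and the shDNMT1 bulk populations (right), with points for populations, lines for their means and a y axis from 30%. Levels of member CpGs go down from 83.9% to 54.9% in the clones and from 57.1% to 40.1% in the bulk populations, and the member line lies below that of the sparsest windows at every distance.

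Windows were also tested one by one with edgeR's quasi-likelihood test on methylated and unmethylated reads, with the population as a block and Benjamini-Hochberg adjustment over all 829358 windows. Between Knockdown and Recovery in the clones, 5670 of 8464 members rose (66.99%), where 59.6% of all windows rose. These were 791 of the 1409 promoter members and 4879 of the 7055 others. In the bulk populations 8464 of 8464 rose, against 98.8% of all windows. The rise differed between the shRNAs in 8454 members, all with the smaller rise in the clones, against 94.3% of all windows. Since the clones stood higher at Knockdown, they had less to regain, and nothing about the completeness of recovery is read from this count. The clone count is less firm than the bulk count. It was 0 without the block, where 0 of all windows rose as well (2235 members at an unadjusted p under 0.05). With limma 3701 members rose (43.7%, against 43% of all windows), and without Cl.6 it was 2364 (27.9%, against 28.8% of all windows), so the excess of members over all windows was small with limma and absent without Cl.6.

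Against Baseline the same test called 8460 members lower at Knockdown in the clones and 8464 in the bulk populations, where 98.9% of all windows were called lower for each. At Recovery 8123 members were lower than Baseline in the clones, against 91.7% of all windows. In the bulk populations edgeR called 0 members at Recovery and limma 0, against 0.000121% of all windows by edgeR. At an unadjusted p under 0.05 it was 415 members (4.90%), and 65 without the block. The share of all windows at this threshold was not computed, so nothing is read from these counts. Mean member levels stayed slightly below Baseline, by -0.872 points in R1 and -0.817 points in R2. These contrasts use the Baseline libraries that chose the members, so the counts are descriptions.

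Where the members lay differed from other CpG-dense windows. Of the members 16.6% overlapped a protein-coding promoter, against 55.1% of the 17474 dense windows with enough reads that were not members and 1.12% of windows of 10 to 19 CpGs. Coding sequence filled 500 bases or more of 15.1% of members, 3.86% of the dense non-members and 0.470% of the sparser windows. A further 14.7% of members lay wholly in introns and another 14.7% outside all annotated genes. Members within 5 Mb of a chromosome end made up 31.8%, against 18.4% and 8.10% of the other sets. The start of any annotated gene, coding or not, lay in 20.7% of members and 52.98% of the dense non-members. Alternative starts within a gene were not counted. Dense methylated windows were thus mostly away from promoters as defined here and often near the ends of chromosomes. The Baseline domain lists placed 77.7% of them in highly methylated domains in all 5 populations, against 91.4% of the sparser windows.

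Knockdown levels of promoter members and the others were close together, while at Baseline promoter members minus the others gave -1.17 to -0.920 points. Promoter members minus the others gave -0.606, -0.392 and 0.0211 points in the clones (-0.325 ± 0.319, SD, n = 3) and 0.141 and 0.522 points in the bulk populations (0.332 ± 0.270, SD, n = 2), gaps of about the size of the spread between populations (exact sign-flip permutation p = 0.875 over 5 populations). The mean gap turned positive in the clones with at least 40 CpGs (0.369) or a Baseline floor of 90% (0.638), turned negative in the bulk populations with at least 40 CpGs (-0.264) or a floor of 70% (-0.119), and was -1.16 and 1.46 points with at least 70 CpGs. At Recovery promoter members minus the others gave -1.12, -0.985 and -2.03 points in the clones, with -1.03 in each bulk population. The regained share was 44.7%, 53.2%, 37.5%, 97.7% and 97.9% in promoter members of Cl.3, Cl.6, Cl.9, R1 and R2 and 48.3%, 55.1%, 43.4%, 97.9% and 98.1% in the others, lower for promoters in each population, and this difference was not tested. Members with 500 or more coding bases (1278) stood above members outside all genes (1248) at Knockdown by 2.32, 2.97 and 3.502 points in the clones and the gap was -0.0687 and -0.155 points in the bulk populations (exact permutation of 3 against 2, p = 0.1). At Baseline this gap was 1.92 to 2.49 points in all 5 populations. Members within 5 Mb of a chromosome end differed from the rest at Knockdown by -1.06, -1.50 and -3.44 points in the clones and by -3.54 and -3.42 points in the bulk populations, whereas at Baseline they stood 0.159 to 0.258 points above.

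A wider gap lay between domains, and at Knockdown it was seen in the clones and not in the bulk populations. Partially methylated domains are long stretches of reduced methylation, and 110 members lay in such a domain in all 5 Baseline lists. Members in highly methylated domains (6575) exceeded these by 7.24, 7.17 and 8.34 points at Baseline in the clones and by 6.89 and 6.81 points in the bulk populations. At Knockdown the gap was 8.16, 9.68 and 11.8 points in the clones and -0.385 and 0.314 points in the bulk populations (exact permutation of 3 against 2, p = 0.1), and at Recovery it was 9.10, 10.7 and 15.4 points against 6.60 and 6.72 points. The Baseline gap is part of these values. The regained share in these 110 members was 36.5%, 43.1% and 28.4% in the clones, against 49.7%, 57.2% and 46.1% in the members of highly methylated domains.

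By the domain lists of each library, highly methylated domains covered 82.5% to 88.3% of the member length at Baseline. At Knockdown they covered 49.98%, 19.5% and 0.0702% in Cl.3, Cl.6 and Cl.9 and 0% in both bulk populations. Of the windows of 10 to 19 CpGs they covered 93.8% to 96.7% at Baseline and 61.2%, 20.0% and 0% in the 3 clones at Knockdown. At Knockdown the class called unmethylated regions covered 0.764%, 1.17% and 4.97% of the member length in Cl.3, Cl.6 and Cl.9. Its cover was 20.9% for R1 and 22.3% for R2. Of the windows of 10 to 19 CpGs it covered 0.103%, 0.255%, 4.09%, 11.003% and 13.3% in the same order. The class name is not a measured level, as the 5th percentile of member levels at Knockdown was 33.4% for R1 and 32.7% for R2. How far the number of CpGs enters these calls was not tested. At Recovery highly methylated domains covered 74.9%, 68.9% and 27.4% in the clones, with 82.6% and 81.5% in the bulk populations. For the windows of 10 to 19 CpGs it was 88.1%, 84.2% and 38.9%, with 91.9% and 91.6%, so members had the lower cover in each population. Classes overlap in these lists and were called library by library, so the shares need not sum to 100 and move with how much was called.

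Every autosome held members, from 113 on chromosome 21 to 832 on chromosome 19, which made up 37.7% of its 2207 dense windows with enough reads. The chromosome 19 members had the lowest mean Knockdown levels of any autosome in the bulk populations, 48.2% in R1 and 47.0% in R2, against 58.0% and 57.1% on chromosome 4. In Cl.3 and Cl.9 chromosome 19 was at 84.5% and 64.2% and chromosome 4 at 85.5% and 69.3%.

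Most members stood alone. The 8464 windows formed 6933 runs of adjacent windows, 5705 of them a single window and 233 of 3 or more. The longest run covered 10 windows and 844 CpGs of PLEC (chr8:143916001-143926000), which encodes the cytoskeletal linker plectin, with coding bases in all 10 windows. Its mean mC over the 10 windows at Knockdown was 93.7%, 91.2% and 81.9% in the clones against 67.3% and 62.6% in the bulk populations, above the mean of the members in each. Runs of 6 windows lay at the developmental transcription factor genes NR2E1 (chr6:108164001-108170000) and PRDM12 (chr9:130661001-130667000), at FGF22 and RNF126 (chr19:643001-649000) and in the coding exons of HELZ2 (chr20:63562001-63568000). At PRDM12 the Knockdown level was 83.8%, 76.9% and 60.8% in the clones, with 55.3% and 53.7% in the bulk populations, and at Recovery it was 84.1%, 85.5% and 67.8% in the clones, with 92.1% and 91.2% in the bulk populations.

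Among promoter members the Knockdown level averaged over the clones ran from 43.5% to 94.4%, and over the bulk populations from 17.7% to 73.5%. The highest in the clones was the window shared by SOX30, a transcription factor of male germ cell development, and C5orf52 (chr5:157671001-157672000, partly coding, 87 CpGs). It was at 97.1%, 94.0% and 92.2% in Cl.3, Cl.6 and Cl.9 at Knockdown and at 56.0% and 63.5% in R1 and R2. Its Baseline levels were 94.8%, 99.7% and 98.4% in the clones, so Cl.3 stood above and Cl.6 and Cl.9 several points below their starting level. The protocadherin gene PCDH7 had 2 windows among the 10 highest. In the one nearest its start (chr4:30720001-30721000, noncoding exon, 65 CpGs) Knockdown levels were 91.9%, 94.1% and 87.2% in the clones against 40.4% and 39.8% in the bulk populations. CDO1, cysteine dioxygenase (chr5:115816001-115817000, partly coding), had 95.3%, 96.3% and 85.4% in the clones, with 76.0% and 67.4% in the bulk populations. The others of this group were the promoter windows of NDUFA13, a complex I subunit whose window lies in the testis kinase gene TSSK6, TTC28, the limb transcription factor TBX4, PRR23C, the microtubule protein MAP9 and the imprinted NNAT, with clone means of 90.9% to 92.7%.

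The lowest promoter window in the clones belonged to HSD17B1, an enzyme of oestradiol synthesis (chr17:42553001-42554000, partly coding, 61 CpGs). Its levels were 55.9%, 53.8% and 20.7% in Cl.3, Cl.6 and Cl.9 at Knockdown and 22.6% and 18.4% in the bulk populations, from Baselines of 80.6% to 90.4%. At Recovery it was at 69.2%, 51.4% and 23.01% in the clones, of which Cl.6 had not risen at all, and at 82.6% and 74.2% in R1 and R2. The window upstream of LMNA, the lamin A/C gene (chr1:156081001-156082000, in coding sequence of MEX3A), was at 63.2%, 61.6% and 30.5% in the clones against 21.4% and 20.3% in the bulk populations at Knockdown. At Recovery it was at 71.8%, 61.2% and 41.8% in the clones, with 83.7% and 84.4% in the bulk populations. The group went on with the serine protease gene PRSS57, the nucleotidase NT5C1A, the heparan sulfotransferase HS3ST4, the orexin receptor HCRTR1, ARHGAP23, the calcium pump ATP2B2, the amino acid transporter SLC6A19 and the cation exchanger SLC24A2, with clone means of 51.1% to 55.3%. PRSS57 started near the threshold, with Baselines of 80.1% to 84.2%.

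**Figure D5:**
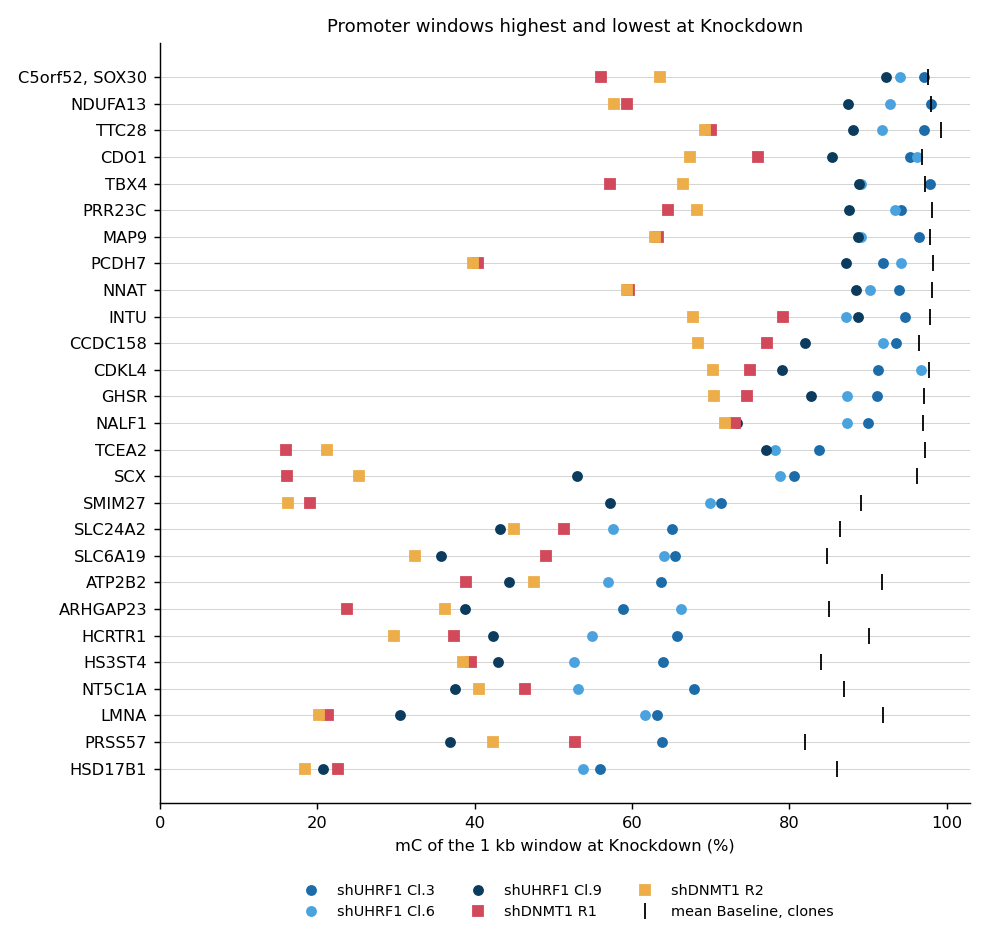
mC (%) at Knockdown of the promoter windows that were highest and lowest in the clones (10 each) and in the bulk populations (5 each), with circles for clones, squares for bulk populations and a bar for the mean Baseline of the clones. PCDH7 is shown only by its window nearest the start, and its other window among the highest is left out. Rows are ordered by the clone mean, from 43.5% at HSD17B1 to 94.4% at SOX30 and C5orf52, and the bulk squares at PCDH7, SMIM27 and TCEA2 lie far below their clones.

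Ranking by the bulk populations gave other promoters. The highest were INTU, a planar polarity effector of ciliated cells (chr4:127623001-127624000), at 79.2% and 67.8% in R1 and R2, and CCDC158, CDKL4, the ghrelin receptor gene GHSR and NALF1 with bulk means of 72.5% to 72.8%. The lowest was SMIM27 (chr9:32550001-32551000, in coding sequence of TOPORS, a ubiquitin and SUMO ligase), at 19.1% and 16.3% in the bulk populations and 71.3%, 70.0% and 57.2% in the clones. The window of TCEA2 (chr20:64048001-64049000, with 794 coding bases of SOX18, a vascular transcription factor, and 141 CpGs) had 15.98% and 21.3% in the bulk populations and 83.8%, 78.2% and 77.0% in the clones. It returned to 98.2% and 97.4% in the bulk populations at Recovery. HSD17B1, LMNA and the tendon transcription factor gene SCX (20.7%) were the other bulk minima, so HSD17B1 and LMNA stood among the lowest promoters under both shRNAs.

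By the mean distance below Baseline at Recovery in the clones, HSD17B1 (38.2 points), LMNA (33.6), NT5C1A (29.3), ATP2B2 (25.9) and RASGRP2, a Rap exchange factor (25.4), had recovered least. NT5C1A was at 61.1%, 64.8% and 46.7% in the clones at Recovery, below its Knockdown level in Cl.3, and at 81.3% and 74.9% in the bulk populations. Closest to Baseline were SOX30 and C5orf52 (0.404 points), CDO1 (0.624), HOXA5 (0.672), the actin-like ACTL10 (0.744) and the malic enzyme gene ME3 (1.40). At HOXA5, a homeobox gene (chr7:27143001-27144000, 562 coding bases), Knockdown levels were 93.4%, 87.8% and 90.0% in the clones against 44.5% and 38.6% in the bulk populations. All 5 populations returned it to 94.4% or more.

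Gene groups were described by the promoter members of the lists chosen for this work, beside all 1335 genes with a promoter member, whose median Knockdown level was 77.0% over the clones and 54.4% over the bulk populations and of which 752 rose in the clones from Knockdown to Recovery by edgeR's adjusted test. In all lists a gene counted as risen passed that test, which called 0 members without the block. Others may still have been higher, as 89.0%, 97.0% and 98.1% of all members were in Cl.3, Cl.6 and Cl.9. Wnt antagonists, which restrain a pathway that colorectal tumours activate, had a promoter member for 5 of 10 genes, with medians of 73.7% and 56.2%, and 1 of the 5 rose. SOX17 (chr8:54458001-54459000), an endoderm transcription factor that opposes Wnt signalling, was at 88.4%, 85.6% and 75.3% in the clones, with 59.9% and 64.5% in the bulk populations at Knockdown, and rose to 94.7%, 97.0% and 87.9% in the clones at Recovery. SFRP2, a secreted Wnt inhibitor (chr4:153789001-153790000), was at 78.7%, 79.1% and 55.2% in the clones at Knockdown and at 80.7%, 84.1% and 57.8% at Recovery, with 60.6% and 58.3% followed by 88.4% and 87.3% in the bulk populations. WIF1, SFRP5 and DKK3, also secreted inhibitors, had clone means of 80.3%, 73.7% and 70.8% at Knockdown.

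Of 32 genes often silenced by promoter methylation in colorectal cancer, 13 had a promoter member, with medians of 73.7% in the clones and 53.7% in the bulk populations, and 6 of the 13 rose in the clones. The netrin receptor gene UNC5C was highest, at 92.0%, 85.9% and 82.6% in the clones against 66.3% and 67.3% in the bulk populations. The cadherin gene CDH13 was lowest, at 74.9%, 70.96% and 56.8% in the clones, with 55.7% and 51.8% in the bulk populations. TFPI2, a protease inhibitor, and ADAMTS1, a metalloprotease, had clone means of 80.4% and 80.1%, and the transcription factor genes GATA5 and ALX4 had 70.2% and 70.1%.

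Germline genes had the highest clone median of the 9 lists. A promoter member was found for 9 of 25 genes, with medians of 87.0% in the clones and 57.1% in the bulk populations, and 5 of the 9 rose in the clones. The meiotic gene HORMAD1 (chr1:150720001-150721000) was at 94.0%, 90.4% and 86.4% in the clones against 70.6% and 64.6% in the bulk populations. SYCP3, of the synaptonemal complex, was at 94.5%, 86.3% and 85.1% in the clones, with 55.5% and 64.0% in the bulk populations, and the Tudor domain gene TDRD5 at 93.0%, 93.7% and 75.6% against 60.4% and 67.2%. STK31, TDRD12 and DPEP3 were the lowest of the list, with clone means of 86.0%, 85.0% and 82.8%. Germline promoters were also among the most methylated at Baseline, with list medians of 97.6%, 97.4% and 97.1% in the clones.

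The other lists had clone medians of 72.8% to 83.5% and bulk medians of 43.1% to 60.3%. Of 159 homeobox and related developmental transcription factor genes 63 had a promoter member, with medians of 78.3% and 53.3%, from TBX4, SOX30 and HOXA5 at 90.4% or more to LHX5, PAX7 and IRX2 at 61.4% to 61.6%, and 37 of the 63 rose in the clones. Protocadherins had 11 of 63, with 82.1% and 60.3%, and 8 of the 11 rose. Besides PCDH7, their highest were PCDH10 and PCDHGC3 and their lowest PCDH8, PCDHGB6 and PCDHGA4, with clone means of 69.4% to 76.3%. Windows of the protocadherin gamma cluster overlap several of its genes. Imprinted genes had 4 of 19, with 79.8% and 53.6%, of which NNAT and FAM50B rose, and PEG3 and ZIM2, which share a window at 77.98%, did not pass. Ion channel genes had 35 of 179, with 72.8% and 52.9%, and 17 of the 35 rose. Their extremes were KCND2, KCNC2 and KCNE3 at 80.5% to 84.2% and CACNG2, KCNA3 and CACNG7 at 56.5% to 61.4%. Zinc finger genes had 50 of 503, with 75.3% and 54.1%, and 15 of the 50 rose. ZNF132 was highest at 88.6% and ZNF836 lowest at 62.8%, with ZNF541 and ZNF662 following the first and ZNF667 and ZNF835 preceding the last. Cytosolic ribosomal protein genes had 3 of 77, RPS27, RPL22 and RPL3L, with 83.5% and 43.1%, the lowest bulk median of the lists, and all 3 rose in the clones. The RPL22 window, which also holds RNF207, was at 92.3%, 88.3% and 69.8% in the clones against 35.3% and 31.4% in the bulk populations. Lists differ in Baseline level, CpG number and position, so no difference between lists was tested.

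Outside promoters as defined here, which leave out alternative starts of a gene, the highest clone mean was in MEST, an imprinted gene (chr7:130492001-130493000, partly coding, 88 CpGs). It was at 96.6%, 95.2% and 93.0% at Knockdown, with 57.9% and 65.3% in the bulk populations. MYORG, TOR4A, PCNT and JAK2 followed, with clone means of 93.3% to 94.5%. TOR4A, a torsin gene (chr9:137279001-137280000, 958 coding bases, 126 CpGs), had 97.6%, 95.9% and 88.7% in the clones but 34.9% and 29.5% in the bulk populations, a gap like that of PCDH7. The lowest was in MYH10, a nonmuscle myosin gene (chr17:8629001-8630000, noncoding exon, 58 CpGs), at 39.9%, 48.4% and 21.7% in the clones, with 15.4% and 20.6% in the bulk populations. At Recovery it was at 54.1%, 62.4% and 21.6% in the clones against 81.1% and 78.4% in the bulk populations. IRF2BPL (chr14:77026001-77027000, all coding, 102 CpGs) was at 46.6%, 49.1% and 32.1% in the clones at Knockdown, against 8.71% in R1 and 14.2% in R2, which reached 95.9% and 67.7% at Recovery. The glutamine synthetase gene GLUL, the transcription factor gene KLF2 and a window outside protein-coding genes on chromosome 22 (chr22:49321001-49322000) completed the 5 lowest, with clone means of 39.1%, 46.1% and 46.0%. At KLF2 the clones were at 56.7%, 41.7% and 40.02% at Knockdown and 62.0%, 45.7% and 41.1% at Recovery, and the bulk populations rose from 28.2% and 20.1% to 82.5% and 84.8%.

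Members near the Baseline threshold were lower at Knockdown than the rest and close to the windows just outside. The 307 members whose lowest Baseline level was 80% to 82% had Knockdown means of 73.7%, 68.2%, 52.3%, 47.8% and 47.6% in Cl.3, Cl.6, Cl.9, R1 and R2. The 256 dense windows with a lowest Baseline of 78% to 80%, which were not members, had 72.5%, 66.7%, 51.4%, 47.1% and 46.3%.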

How the data were processed

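Whole-genome bisulfite sequencing libraries of 5 HCT116 populations at 3 stages were compared. Per the study's methods and the labels, the authors aligned reads to hg38 with the Meth10X pipeline and deposited raw counts, the methylated reads and the covering reads of each CpG, in 3 tables with 30 count columns, and the submitters' notes name bedtools 2.25.0. How duplicates were treated is not given in the sources used here. All 27852739 autosomal rows were CpG cytosines of hg38. The deposited domain lists were used as given. Per the study's methods, partially methylated, low-methylated and unmethylated regions came from MethylSeekR. The remainder of the genome, found with bedtools, was listed as highly methylated where its mean level was 80% or more.

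Counts were summed over 1 kb windows, and samples were grouped by shRNA, population and stage from the titles. Members, gene lists and tests were chosen with earlier results of these data known. Named promoters are those with the 10 highest and 10 lowest mean Knockdown levels in the clones, the 5 highest and 5 lowest in the bulk populations, and the 5 with the largest and smallest Recovery deficit in the clones. Outside promoters the 5 highest and 5 lowest in the clones are named. In each list all genes are named where 6 or fewer had a member window, and otherwise the 3 highest and 3 lowest. Genes and positions came from GENCODE release 44. Levels were compared by exact permutation over populations.

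Windows with 10 or more CpGs and 100 or more reads in every library were tested with edgeR 4.0.16 (glmQLFit and glmQLFTest, methylation design matrix, 1 common dispersion, population as a block) in R 4.3.3, with Benjamini-Hochberg adjusted p-values under 0.05 called over all windows. limma 3.58.1, no block, other thresholds and leaving out a population were alternatives. Libraries that share a population name come from 1 cell population per the labels. Across windows, r between the Baseline and Knockdown deviations of a population from its group was 0.219 to 0.276 in the clones and 0.000143 in the bulk populations. None of the 12 pairs of libraries of 1 stage and shRNA was a duplicate, and other pairs were not compared. The edgeR procedure was tested on simulated windows with independent noise in each library and a change of equal size in all clones. Clones that differ in the size of their change were not simulated, so this does not bear on how firm the clone counts are. The exact tests were not tested on simulated data.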

Additional observations from a re-analysis of the deposited data

Results flagged for a closer look

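Of the member windows, 8454, against 94.3% of all windows tested, differed between the shRNAs in the change from Knockdown to Recovery by edgeR's interaction term (Benjamini-Hochberg adjusted p under 0.05). The clones stood higher at Knockdown and had less to regain, so this count does not speak to how complete the recovery was. For the following gaps every clone moved one way and both bulk populations the other, and apart from exact permutations that cannot pass 0.05 the differences were not tested. The change in members with 100 or more CpGs minus that in members with 50 to 69 CpGs was 2.87 points for shUHRF1 and -1.43 points for shDNMT1. The regained share in members minus that in windows of 10 to 19 CpGs was -4.84 points for shUHRF1 and 0.678 points for shDNMT1. Within highly methylated domains, the Knockdown change in members minus that in windows of 10 to 19 CpGs was 3.92 points and -0.605 points. At Knockdown, members with 500 or more coding bases minus members outside all genes gave 2.93 points and -0.112 points. At Recovery, members within 5 Mb of a chromosome end minus the rest gave -0.538 points and 0.0864 points. In all these pairs the shRNA cannot be told apart from clone or bulk origin.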

How the results depend on the processing

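Of the values recomputed under other settings, 254 were counted as unchanged, 18 as moved and 10 changed sign. Values with an exact permutation over populations, and Knockdown changes as log2 odds, were counted as unchanged on their sign alone. Other values had to lie within the spread between populations, and counts within 1.5 times. The cause was not tested unless the alternative left fewer windows. Mean mC in shDNMT1 cells at Knockdown was 52.1% from pooled reads, 52.03% with a Baseline floor of 70% and 54.0% with a floor of 90%. The shDNMT1 difference between members and windows of 10 to 19 CpGs turned to -0.197 points with pooled reads, -0.315 with at least 40 CpGs and -0.671 with a floor of 90%. In 2 alternatives chosen after seeing the data it was -0.605 points within HMD alone and -8.04 at CpG spacings of 2 to 4 bases, where the shUHRF1 difference was -1.89. The promoter difference turned to 0.369 (at least 40 CpGs) and 0.638 points (floor of 90%) in shUHRF1 cells, and to -0.264 (at least 40 CpGs) and -0.119 (floor of 70%) in shDNMT1 cells. In shDNMT1 cells, Recovery minus Baseline was -0.934 points and the share regained 97.8% with at least 40 CpGs, against -0.725 points and 98.2% with at least 70 CpGs. Some values counted as unchanged still moved by over 1.5 times. Those judged on sign alone could lie beyond the spread between populations. Without Cl.9, the share of members that fell by 30 points or more in the clones was 1.22% in place of 12.3%, and Recovery minus Baseline -6.17 in place of -9.30 points. The promoter difference was -1.16 (shUHRF1) and 1.46 points (shDNMT1) with at least 70 CpGs, and -0.0418 and 1.36 points for promoter windows that held the gene start. With at least 300 reads per library the shDNMT1 difference between members and windows of 10 to 19 CpGs was 2.21 points, the share regained was 97.8% and the Knockdown change -39.9 points.

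With at least 300 reads, 1465 members remained. Among them 1465 fell at Knockdown in each hairpin group (92.6% and 88.3% of all windows did), 816 (shUHRF1) and 1465 (shDNMT1) rose at Recovery (36.9% and 87.6%), 1442 stayed lower than Baseline in shUHRF1 cells (84.2%), and 1464 differed between hairpins (77.0%). The number of members that rose at Recovery in shUHRF1 cells was 3701 with limma, ranged from 2364 (without Cl.6, 27.9% against 28.8% of all windows) to 6178 (without Cl.3, 73.0% against 64.8%), and was 0 with no replicate block, that is, without pairing the libraries of a population. The block changed no other member count of adjusted calls by more than 1.5 times. For Recovery below Baseline in shUHRF1 cells, 96.0% of members and 91.7% of all windows were called with the block. These shares were 71.3% and 58.4% without the block. The 415 members at an unadjusted p under 0.05 between Recovery and Baseline in shDNMT1 cells were 65 without it. Read depth limits single windows, whose intervals cover counting error only.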

Other observations

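The 8 runs of 5 adjacent member windows differed in level under the same knockdown. ABCA2, a lipid transporter gene (chr9:137011001-137016000, coding bases in all 5 windows), was at 90.5%, 87.2% and 80.3% in Cl.3, Cl.6 and Cl.9 at Knockdown and 65.6% and 63.3% in R1 and R2. COMP, a cartilage matrix gene (chr19:18787001-18792000, coding bases in all 5 windows), was at 81.5%, 75.3% and 61.5% in the clones against 51.6% and 50.7% in the bulk populations, and Recovery left it at 81.9%, 83.5% and 66.3% in the clones against 88.8% and 90.0% in the bulk populations. At Knockdown every population was higher at ABCA2, which also began higher, at 96.1% to 98.3% against 88.3% to 93.5% at Baseline. OPLAH, the oxoprolinase gene (chr8:144048001-144053000), was at 91.8%, 88.4% and 81.3% in the clones at Knockdown, with 52.7% and 49.7% in the bulk populations. The lowest clone levels were in a run outside protein-coding genes (chr17:21678001-21683000), at 78.1%, 72.9% and 59.4%, with 55.5% and 52.8% in the bulk populations and Baselines of 87.4% to 90.1%. ICAM5, a neuronal adhesion gene (chr19:10293001-10298000), kept 87.0%, 85.1% and 71.5% in the clones but 48.1% and 54.0% in the bulk populations. At the transcription factor gene DMRTA2 (chr1:50415001-50420000) the clones were at 81.9%, 79.2% and 62.1%, with 60.7% and 61.5% in the bulk populations. Further runs lay at the homeobox genes BARX1 (chr9:93951001-93956000) and NKX2-3 (chr10:99533001-99538000). BARX1 was at 86.4%, 79.8% and 66.5% in the clones, with 60.4% and 62.1% in the bulk populations, and NKX2-3 at 80.003%, 78.9% and 65.7% in the clones against 57.7% and 55.7%.

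Tandem or simple repeats, measured as windows in which 10% or more of the 12-mers occurred more than once, made up 880 members (10.4%, against 2.90% of dense windows that were not members). These members differed from the rest at Knockdown by 0.807, 0.404 and -0.0257 points in the clones and 0.631 and 0.916 points in the bulk populations, so repeat content went with little difference in level.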
